A study of Mus musculus with 12 samples.

Results

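Transforming growth factor-beta (TGF-beta), activins and bone morphogenetic proteins (BMPs) are secreted signals of 1 protein family, and 9 genes of these pathways were followed through 12 RNA-seq libraries of C2C12 cells. They were chosen as named parts of these pathways and not by a threshold on their values. Earlier results of these data were known when they were chosen. Tgfb1, Tgfb2, Tgfb3, Inhba and Bmp4 encode ligands, Smad7 encodes an inhibitor inside the cell, and Id1, Id2 and Id3 encode targets of BMP signalling. All 9 were found among the 48795 genes of the files, and all 9 were among the 14838 genes that passed the filter on low counts and were tested. C2C12 is a single mouse myoblast line, grown here for 5 days in 2% horse serum so that the cells fuse into myotubes. The 4 groups of 3 libraries were vehicle (0.02% DMSO for 24 h), ginsenoside Rc (gRc, a ginseng saponin, at 10 µM for 24 h), H2O2 (18 h of vehicle, then 0.25 mM H2O2 for 6 h) and gRc + H2O2 (18 h of gRc, then H2O2 for 6 h). For the last group 1 label gives 24 h of gRc before H2O2 instead.

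Ligands of the TGF-beta and activin branch bind receptor kinases that phosphorylate SMAD2 and SMAD3, and BMPs act through SMAD1, SMAD5 and SMAD9. Phosphorylated SMADs enter the nucleus with SMAD4 and change transcription. SMAD7 blocks the receptors of both branches, and its gene is itself switched on by the pathway. In muscle, TGF-beta and activin restrain the differentiation of myoblasts, and ID proteins do so by binding the E proteins that MyoD and myogenin need as partners.

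The libraries held between 19274762 and 31409066 counts. Levels of 1 gene are compared between groups in CPM, which are counts scaled to library size, and levels of different genes in TPM, which also account for transcript length. Whether replicates came from separate cultures is not stated in the labels. The p-values therefore speak only of the spread among these libraries, which may be technical. Lower levels in a culture can come from fewer cells of a type or from less RNA per cell, which cannot be told apart here. The cell-type label reads myoblasts, but muscle genes were abundant: in vehicle, Myh3 (embryonic myosin) stood at 4535 ± 1529 CPM (SD, n = 3) and Myog (myogenin) at 1105 ± 412 CPM. Genes of cycling cells were also present, with Mki67 at 70.0 ± 31.3 and Top2a at 101 ± 17.5 CPM, and so was the myoblast gene Pax7 at 19.6 ± 4.33 CPM. Of genes of other cell types, Pdgfra (fibroblasts) stood at 18.1 ± 4.97 CPM. Of 10 osteoblast genes 6 passed the filter, with Spp1 at 1059.6 and Runx2 at 22.2 CPM in vehicle, while Alpl was among those under it. Of 6 adipocyte genes only Pparg passed the filter, at 4.07 CPM in vehicle, and it rose with H2O2 (log2 difference 0.66, SE 0.18, adjusted p = 0.0326).

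Among the libraries without H2O2, 3 stood apart from the rest, though not all on the same side. The first principal component held 43.1% of the variance. On it, the score of vehicle replicate 1 was -68.6 and those of the third replicates of vehicle and gRc were 82.3 and 84.2, while the other 9 libraries lay between -44.9 and 22.8. Differences that these libraries move are given below with and without them. Leaving out all 3 leaves 1 vehicle library, so for H2O2 against vehicle only the size of each gene's difference is given.

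Tgfb1 was the most abundant of the 9 per length in every group, and Smad7, Bmp4, Id2, Id3 and Tgfb2 were the least abundant. In vehicle the order in mean TPM was Tgfb1 (144), Tgfb3 (95.3), Id1 (64.1), Inhba (56.1), Id3 (18.9), Tgfb2 (16.7), Bmp4 (9.91), Id2 (8.48) and Smad7 (7.46), and the libraries of every neighbouring pair in this order overlapped. In H2O2 the order was Tgfb1 (139.7), Id1 (84.7), Inhba (66.8), Tgfb3 (65.6), Smad7 (11.2), Tgfb2 (9.77), Id3 (5.28), Bmp4 (4.81) and Id2 (4.27). There Tgfb1 and Id1, Tgfb3 and Smad7, and Tgfb2 and Id3 did not overlap as neighbours. Id3 thus held the fifth place in vehicle and the seventh in H2O2, and Smad7 moved from the ninth to the fifth.

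**Figure D1:**
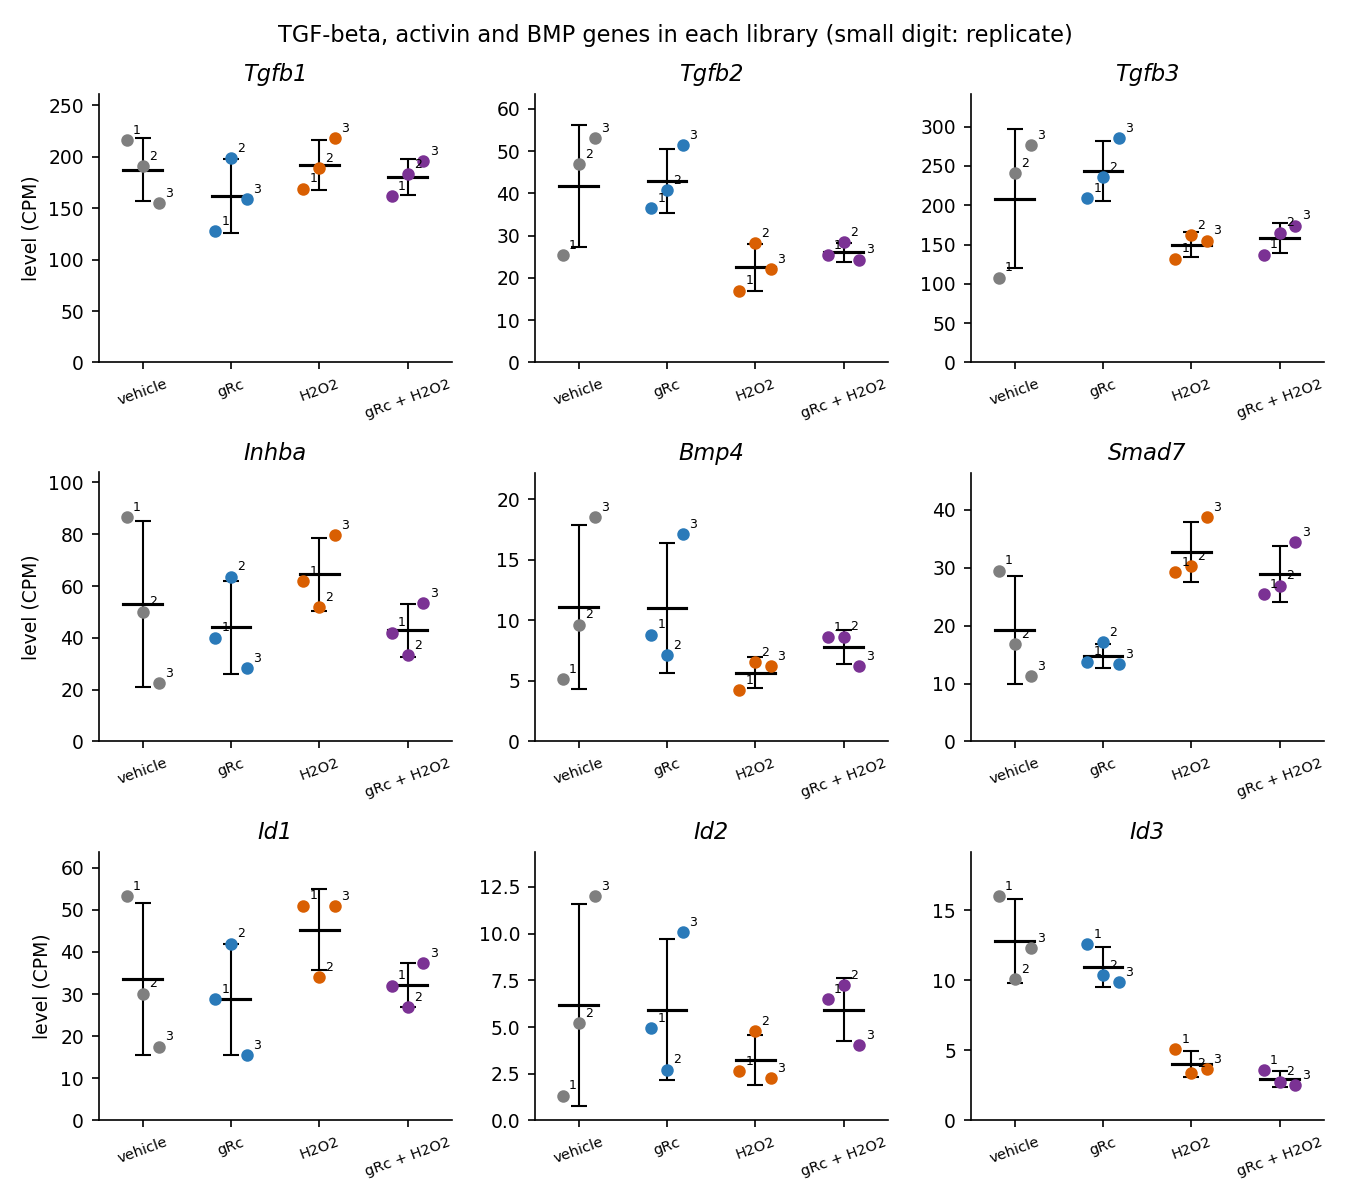
Level of each gene (CPM, vertical axis, from 0) in the 12 libraries by group; points are libraries with their replicate number, and the bars give the mean ± SD (n = 3). Id3 lay between 9.86 and 16.0 CPM in the 6 libraries without H2O2 and between 2.53 and 5.08 in the 6 with it, whereas Inhba, Bmp4, Id1 and Id2 spread widely in vehicle and gRc.

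H2O2 against vehicle addressed what 6 h of oxidative stress did to these genes. Id3 and Tgfb2 fell, and no gene of the 9 rose past the threshold of an adjusted p under 0.05. These 2 of 9 (22.2%) stood beside 15.7% of all genes tested, of which 7.84% fell and 7.81% rose, and the median log2 fold change of the 9 was -0.47 beside -0.06 over all genes. The same step was also measured on cells given gRc, as gRc + H2O2 against gRc. There Id3 fell and Smad7 rose, again 2 of 9 beside 15.7% of all genes (8.15% lower and 7.57% higher), with a median of -0.04 for both the 9 and all genes. To use all 12 libraries, the mean of the H2O2 effects without and with gRc (6 libraries against 6) was taken as well, a contrast added after the data were seen. It passed Id3, Tgfb2 and Smad7, 3 of 9 (33.3%) beside 31.0% of all genes. Of the 3, 2 fell beside 16.4% of all genes and 1 rose beside 14.6%.

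Id3 lies at chr4:136143497-136145755 (GRCm38, plus strand) and encodes an ID protein, which lacks a DNA-binding region and ties up E proteins. Its level was 16.0, 10.1 and 12.3 CPM in vehicle and 12.6, 10.4 and 9.86 CPM in gRc. With H2O2 it was 5.08, 3.36 and 3.68 CPM, and with gRc + H2O2 3.57, 2.78 and 2.53 CPM. Every library with H2O2 lay below every library without it. Id3 fell with H2O2 against vehicle, by a log2 value of -1.66 (SE 0.24, adjusted p = 0.0013, 3.16-fold lower). It was -1.88 for gRc + H2O2 against gRc (SE 0.24, adjusted p = 0.000628) and -1.77 over both (SE 0.17, adjusted p = 3.2e-05, 3.42-fold lower). The fall passed under all 25 alternatives in each of the first 2 comparisons, with log2 fold changes between -1.87 and -1.34 and between -2.05 and -1.67. Without the 3 libraries that stood apart it was -1.34 against the 1 vehicle library left. The groups did not overlap for 31.1% of all genes in H2O2 against vehicle, for 38.7% in gRc + H2O2 against gRc and for 20.5% over both. Among the 9 genes they did not overlap for 1 (Id3), for 4 (Id3, Tgfb2, Tgfb3 and Smad7) and for 1 (Id3).

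Id1 and Id2, the other Id genes measured here, did not pass. Id1 (chr2:152736251-152737410, plus strand) stood at 53.2, 30.1 and 17.5 CPM in vehicle, 28.8, 42.0 and 15.6 in gRc, 51.0, 34.1 and 50.8 in H2O2 and 32.0, 26.9 and 37.3 in gRc + H2O2. All 4 groups overlapped, and the difference between H2O2 and vehicle was 0.43 (SE 0.41). It was 0.93 (SE 0.39) without vehicle replicate 1 and 0.11 (SE 0.38) without vehicle replicate 3. Without the 3 libraries that stood apart it was 0.58, against 1 vehicle library. Id2 (chr12:25093799-25097140, minus strand) stood at 1.33, 5.22 and 12 CPM in vehicle, 4.96, 2.72 and 10.1 in gRc, 2.66, 4.78 and 2.28 in H2O2 and 6.5, 7.26 and 4.04 in gRc + H2O2. Vehicle replicates 1 and 3 held the lowest and the highest Id2 level of all libraries. Its difference between H2O2 and vehicle was -0.94 (SE 0.67), so a change of either sign lay within its error. It was -1.40 (SE 0.54) without vehicle replicate 1 and -0.05 (SE 0.62) without vehicle replicate 3. Without the 3 libraries it was -0.69, against 1 vehicle library.

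The makeup of the Id transcripts shifted with Id3. Of the summed TPM of Id1, Id2 and Id3, Id3 took 21.1 ± 3.95% in vehicle (SD, n = 3), 19.9 ± 4.72% in gRc, 5.61 ± 0.709% in H2O2 and 6.11 ± 0.439% in gRc + H2O2. The lowest library without H2O2 held 14.7% and the highest with H2O2 held 6.46%. Id1 took 67.5 ± 14.9% in vehicle and 89.6 ± 3.3% in H2O2. The sum itself was 91.7 ± 26.9 TPM in vehicle and 94.1 ± 13.6 TPM in H2O2, which differed by less than their spread.

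**Figure D2:**
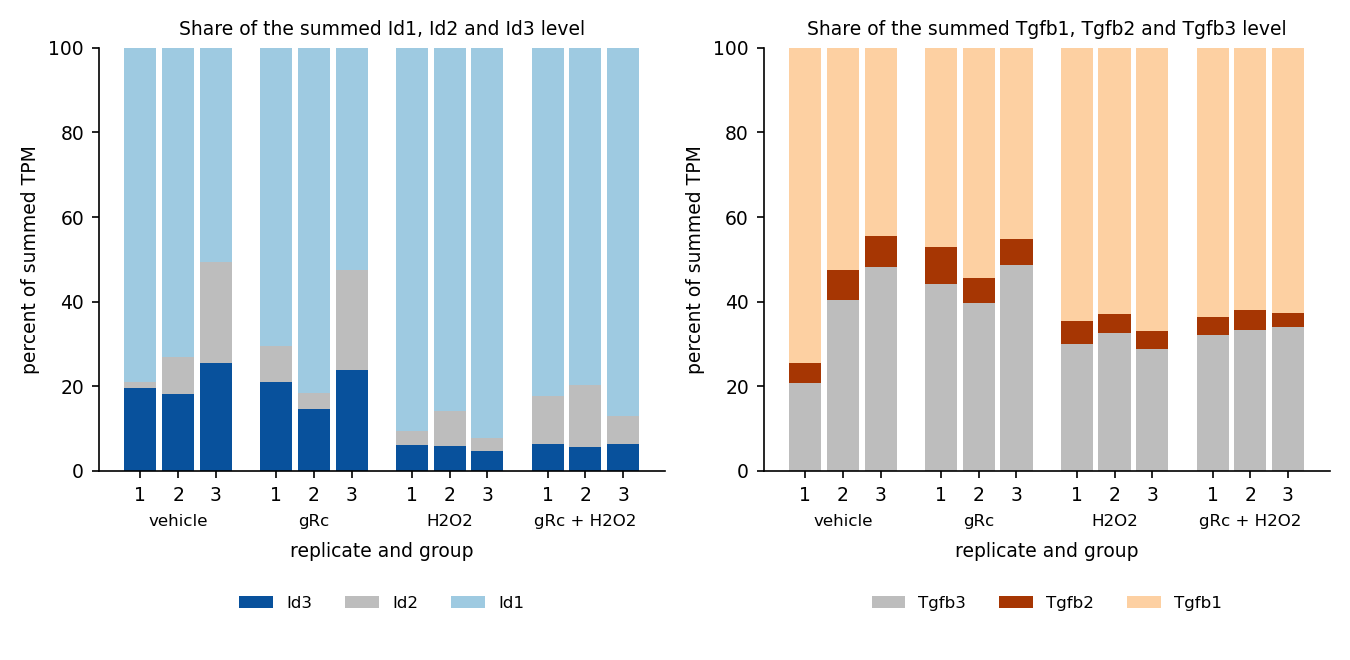
Share of each gene (percent of summed TPM, vertical axis) among Id1, Id2 and Id3 (left) and among Tgfb1, Tgfb2 and Tgfb3 (right) in each of the 12 libraries, grouped by treatment. Id3 held at most 6.46% of the Id level with H2O2 and at least 14.7% without it, and the TGF-beta shares were nearly alike in the 6 libraries with H2O2 and spread in vehicle, where Tgfb1 took 44.6% to 74.5%.

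Sequence near the start sites was set beside these differences, since Id3 fell while Id1 and Id2 did not pass, and Tgfb2 fell while Tgfb1 did not pass. RefSeq promoter windows (GRCm38.p6, 250 bases before and 50 after the start of transcription) matched 6 of the 9 genes: Tgfb1, Tgfb2, Inhba, Bmp4, Id2 and Id3. They were searched on both strands for CAGAC, the letters that SMAD3 and SMAD4 bind, GTCTAGAC, its palindromic form, GGCGCC, a GC-rich motif of BMP SMADs, TATAAA, the TATA box, CCAAT, bound by NF-Y, and GGGCGG, the core bound by SP1. CAGAC was found in 49.6% of all 32851 windows, GTCTAGAC in 0.213%, GGCGCC in 11.9%, TATAAA in 13.6%, CCAAT in 37.4% and GGGCGG in 35.7%. The Id3 window held CAGAC at 167 bases before the start and its reverse complement at 68 bases, and the Id2 window held GGCGCC at 231 bases. GGGCGG was found in the Id3 window at 94 and 90 bases. On either strand, the Id2 window also held CCAAT at 159, 120 and 76 bases and GGGCGG at 16 bases. The stretches that hold CAGAC or GGCGCC are given with the motif in capitals. Those of Id3 fall within the span of the Id3 gene given above, and that of Id2 within the span of the Id2 gene.
Id3, chr4:136143643-136143672, plus strand: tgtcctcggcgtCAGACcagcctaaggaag
Id3, chr4:136143742-136143771, plus strand: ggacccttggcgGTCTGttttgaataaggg
Id2, chr12:25096306-25096335, minus strand: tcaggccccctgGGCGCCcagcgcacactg

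The windows of the ligand genes differed in the same letters. Of the letters searched, that of Inhba held only TATAAA, at 91 bases before the start, and that of Bmp4 only GGGCGG, at 38 bases. That of Tgfb2 held CAGAC at 221 and 204 bases, CCAAT at 130 bases and TATAAA at 31 bases before the start, and no GGGCGG. That of Tgfb1 held GGGCGG on either strand 6 times, 5 of them before the start, and neither CAGAC nor TATAAA. The 250 bases before the starts of Tgfb2 and Tgfb1 are given with CAGAC as well as TATAAA and GGGCGG, or their reverse complements, in capitals. With CAGAC in close to 1 of 2 windows, these matches are a description of the letters only.
Tgfb2, chr1:186705990-186706239, minus strand: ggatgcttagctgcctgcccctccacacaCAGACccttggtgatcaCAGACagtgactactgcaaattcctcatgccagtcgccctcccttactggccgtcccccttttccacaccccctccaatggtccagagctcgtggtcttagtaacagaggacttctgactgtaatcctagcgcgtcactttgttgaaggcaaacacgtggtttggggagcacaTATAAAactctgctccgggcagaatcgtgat
Tgfb1, chr7:25686752-25687001, plus strand: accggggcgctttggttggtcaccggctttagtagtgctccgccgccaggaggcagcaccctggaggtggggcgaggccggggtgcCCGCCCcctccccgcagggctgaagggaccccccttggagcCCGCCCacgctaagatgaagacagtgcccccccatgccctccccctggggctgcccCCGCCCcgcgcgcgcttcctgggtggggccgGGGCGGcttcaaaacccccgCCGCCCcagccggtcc

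Tgfb1, Tgfb2 and Tgfb3 encode the 3 TGF-beta ligands, which are secreted in a latent form. Tgfb2 (chr1:186622792-186705989, minus strand) stood at 25.4, 46.9 and 53.0 CPM in vehicle and 36.5, 40.8 and 51.4 in gRc. With H2O2 it stood at 17.0, 28.3 and 22.1 CPM, and with gRc + H2O2 at 25.3, 28.5 and 24.3 CPM. Vehicle replicate 1 lay among the libraries with H2O2, and the other 5 libraries without H2O2 lay above all 6 with it. Tgfb2 fell by 0.89 with H2O2 against vehicle (SE 0.27, adjusted p = 0.0458). This call held in 12 of 25 alternatives, whose adjusted p ran from 0.00517 to 0.153, and the log2 fold change stayed between -1.15 and -0.69. Of the 12 fits that left out 1 library, 9 lost the call, and it held without vehicle replicate 1, gRc replicate 3 or H2O2 replicate 2. Without the 3 libraries that stood apart the difference was -1.07, against 1 vehicle library. In gRc + H2O2 against gRc the difference was -0.72 (SE 0.27, adjusted p = 0.0991) without overlap of the groups, and 7 of 25 alternatives called it, with adjusted p from 0.0189 to 0.235. Over both, Tgfb2 fell by 0.81 (SE 0.19, adjusted p = 0.00791, 1.75-fold lower), and all 24 alternatives called it, with adjusted p up to 0.021.

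Tgfb3 (chr12:86056745-86079041, minus strand) moved with the vehicle libraries included. It stood at 108, 240.3 and 276 CPM in vehicle, 209, 236 and 285 in gRc, 132, 162 and 155 in H2O2 and 137, 165 and 174 in gRc + H2O2. Vehicle replicate 1 was the lowest of all 12, and the other 5 libraries without H2O2 lay above all those with it. The difference between H2O2 and vehicle was -0.47 (SE 0.29, adjusted p = 0.303). Without vehicle replicate 1 it was -0.78 (SE 0.17, adjusted p = 0.0114). Without the 3 libraries that stood apart it was -0.69, against 1 vehicle library. Without vehicle replicate 3 it was -0.23 (SE 0.28, adjusted p = 0.637) and without vehicle replicate 2 -0.35 (SE 0.32, adjusted p = 0.51). These were among 25 alternatives, of which 2 called it lower. Over both H2O2 effects it was -0.55 (SE 0.20, adjusted p = 0.0623), and 6 of 24 alternatives called it lower, with adjusted p from 0.0011 to 0.129.

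Tgfb1 (chr7:25687002-25705077, plus strand) did not move with H2O2 beyond its error. It stood at 216, 191 and 155 CPM in vehicle, 128, 199 and 159 in gRc, 169, 189 and 218 in H2O2 and 162, 183 and 196 in gRc + H2O2, and all groups overlapped. Its difference between H2O2 and vehicle was 0.04 (SE 0.19), with a 95% interval of -0.38 to 0.45. Tgfb1 took 57.2 ± 15.5% of the summed TGF-beta TPM in vehicle and 64.9 ± 1.96% in H2O2, Tgfb2 6.43 ± 1.36% and 4.59 ± 0.634%, and Tgfb3 36.4 ± 14.1% and 30.5 ± 2.0%. Exons of the antisense genes Gm29491 and Gm37804 overlap those of Tgfb2 and Tgfb3, and these genes held at most 0 and 5 counts in a library. A further antisense gene whose exons overlap Tgfb3 was not analysed here, so reads shared with it cannot be told apart.

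Inhba and Bmp4 spread widely within vehicle, and neither passed. Inhba (chr13:16011851-16031621, plus strand), which encodes the subunit of activin A, stood at 86.5, 50.1 and 22.5 CPM in vehicle, 40.1, 63.6 and 28.3 in gRc, 62.0, 51.8 and 79.6 in H2O2 and 42.0, 33.2 and 53.3 in gRc + H2O2. Vehicle alone spanned the range of the other 3 groups, and the difference between H2O2 and vehicle was 0.28 (SE 0.43). It was 0.83 (SE 0.40) without vehicle replicate 1 and -0.10 (SE 0.36) without vehicle replicate 3, and neither passed. Without the 3 libraries that stood apart it was 0.35, against 1 vehicle library. Bmp4 (chr14:46383520-46390669, minus strand), a BMP ligand, stood at 5.16, 9.65 and 18.5 CPM in vehicle, 8.81, 7.15 and 17.1 in gRc, 4.24, 6.58 and 6.25 in H2O2 and 8.6, 8.65 and 6.22 in gRc + H2O2. Its difference was -0.97 (SE 0.44, adjusted p = 0.17), and leaving out vehicle replicate 1, its lowest vehicle library, gave -1.30 (SE 0.38, adjusted p = 0.0392). Without vehicle replicate 3, its highest, it was -0.40 (SE 0.38, adjusted p = 0.54). Without the 3 libraries that stood apart it was -0.77, against 1 vehicle library. Its adjusted p over the 25 alternatives ran from 0.0392 to 0.54.

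Smad7, on chromosome 18, went the other way. It stood at 29.5, 16.8 and 11.3 CPM in vehicle, 13.8, 17.1 and 13.4 in gRc, 29.2, 30.3 and 38.7 in H2O2 and 25.5, 26.9 and 34.4 in gRc + H2O2. Vehicle replicate 1 again lay among the libraries with H2O2, and in CPM the other 5 without H2O2 lay below all 6 with it. In TPM, gRc replicate 3 (9.49) lay above gRc + H2O2 replicate 1 (9.38), so these 2 groups overlapped. The difference between H2O2 and vehicle was 0.77 (SE 0.30, adjusted p = 0.105) and became 1.22 (SE 0.23, adjusted p = 0.00542) without vehicle replicate 1. It was 0.49 (SE 0.26, adjusted p = 0.249) without vehicle replicate 3. Without the 3 libraries that stood apart it was 0.95, against 1 vehicle library. The adjusted p over all 25 alternatives ran from 0.00542 to 0.312. In gRc + H2O2 against gRc, Smad7 rose by 0.97 (SE 0.30, adjusted p = 0.0481) without overlap of the groups in CPM. Of 25 alternatives 8 kept the call, with adjusted p up to 0.2. Of the 12 fits that left out 1 library, 10 lost it, and it held without vehicle replicate 1 or vehicle replicate 3. Over both, it rose by 0.87 (SE 0.21, adjusted p = 0.00882, 1.83-fold higher), and all 24 alternatives called it, with log2 fold changes between 0.58 and 1.10.

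**Figure D3:**
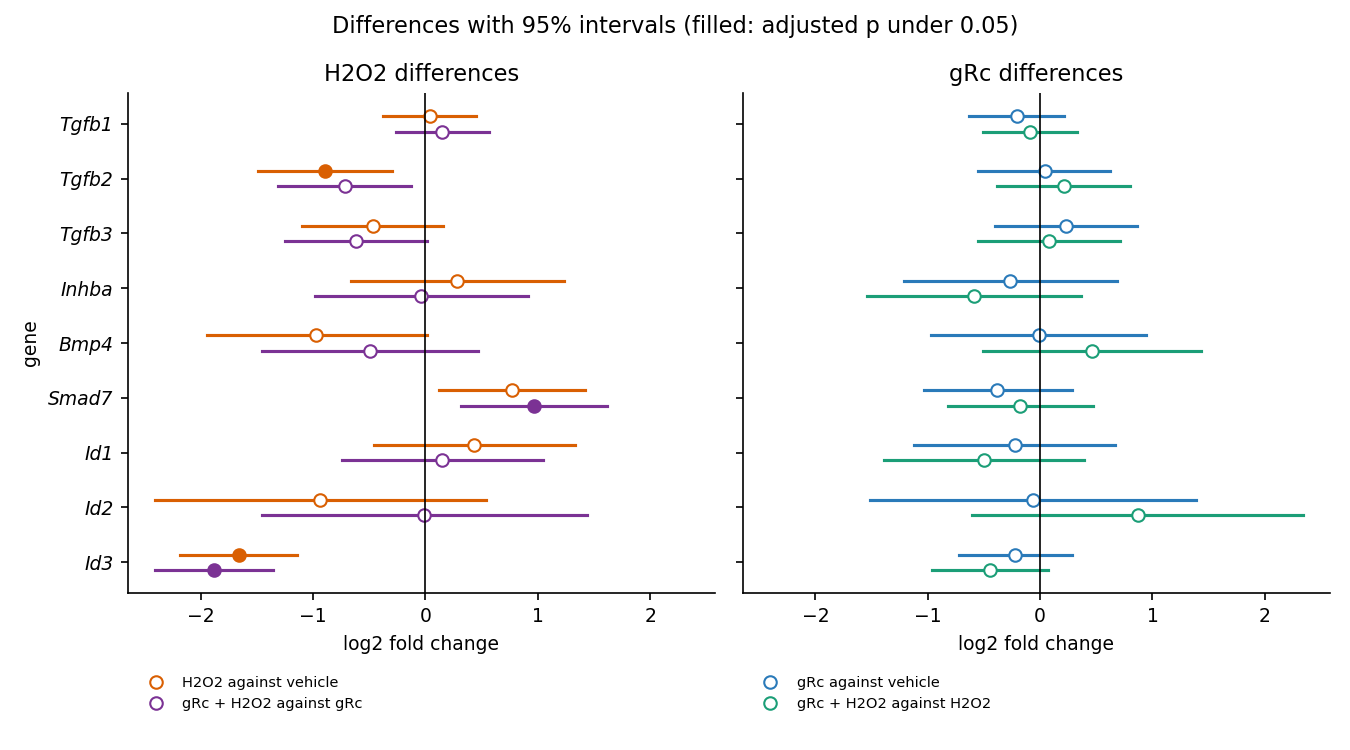
Log2 fold change of each gene (horizontal axis) with its 95% interval, for the 2 H2O2 comparisons (left) and the 2 gRc comparisons (right); filled points had an adjusted p under 0.05. Id3 is the one gene filled in both H2O2 comparisons, and no point is filled on the right.

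Neither gRc comparison passed any of the 9. Against vehicle, 0 of 9 passed with edgeR and 0 had an unadjusted p under 0.05. Of all genes 0.0% were called, and 74 (0.499%) had an unadjusted p under 0.05. DESeq2 called 0 genes. In gRc + H2O2 against H2O2, which addressed whether gRc alters the response, 0 of 9 passed and 0 had an unadjusted p under 0.05. Of all genes 0.0% passed there, and 122 (0.822%) had an unadjusted p under 0.05. DESeq2 called 2 genes. The smallest p among the 9 there was that of Id3, with -0.45 (SE 0.24, adjusted p = 0.922) and a 95% interval of -0.96 to 0.07. The interval ran from -0.38 to 0.80 for Tgfb2, from -0.82 to 0.47 for Smad7, from -0.51 to 0.33 for Tgfb1 and from -0.55 to 0.71 for Tgfb3. It was wider for Inhba (-1.54 to 0.36), Bmp4 (-0.51 to 1.43), Id1 (-1.39 to 0.39) and Id2 (-0.61 to 2.34), and a change of 2-fold in 1 direction was within the interval of these 4 and not within that of the other 5. The interaction, which tests whether the H2O2 effect differed with gRc, passed 0 of 9 with 0.0% of all genes called. It was -0.22 (SE 0.33) for Id3, 0.17 (SE 0.38) for Tgfb2 and 0.20 (SE 0.42) for Smad7, with an interval for Id3 of -0.94 to 0.50.

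Libraries of the same group differed in most of the 9 genes when H2O2 was not given. By CPM in vehicle, replicate 1 was the highest and replicate 3 the lowest in Inhba, Id1, Smad7 and Tgfb1. The order was the opposite in Tgfb2, Tgfb3, Bmp4 and Id2. By CPM in gRc, replicate 3 held the highest Tgfb2, Tgfb3, Bmp4 and Id2 and the lowest Inhba, Id1 and Smad7. By TPM its Smad7 was instead the highest, at 9.49 beside 5.28 and 6.04, and its Tgfb2 was not the highest. Id3 followed neither order, with replicate 1 the highest and replicate 2 the lowest in vehicle. Replicates 1 and 3 of vehicle and replicate 3 of gRc are the libraries that stood apart over all genes, and what set them apart was not tested.

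Genes with the most similar course were sought among 10695 well-expressed genes, by the root mean square difference of centred log2 CPM over 12 libraries. Nearest to Id3 were Rgl1 (0.18) and Tnfrsf25 (0.20), beside an SD of 0.96 for Id3 itself. Nearest to Tgfb2 were Mllt3 (0.10) and Pbx3 (0.12), to Tgfb3 Ttc8 (0.13) and Mras (0.14), and to Tgfb1 Stat2 and Arhgap23 (both 0.11). Smad7 was nearest to Zdhhc18 and Ptger4 (both 0.15), Inhba to Dact1 and Ddx23 (both 0.14) and Bmp4 to Tmem60 (0.12) and Cav1 (0.13). Id1 was nearest to Dirc2 (0.09) and Ing2 (0.10), and Id2 to Dbi (0.13) and Nptn (0.18). Id1 and Id2 thus had close neighbours in spite of their wide spread, with SDs of 0.57 and 0.91.

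In 11 lists of pathway parts, which hold the 9 genes as well, 96 genes were tested. In H2O2 against vehicle 8 rose and 14 fell (22.9% beside 15.7% of all genes). In gRc + H2O2 against gRc 8 rose and 12 fell (20.8% beside 15.7%). Over both H2O2 effects 13 rose and 21 fell (35.4% beside 31.0%), which was close to the share of all genes. These counts include the calls of Id3 and Tgfb2 in the first comparison and of Id3 and Smad7 in the second. Over both they include Id3, Tgfb2 and Smad7. Of 12 BMP targets, 1 rose and 4 fell with H2O2, with a median log2 fold change of -0.56, beside 7.81% of all genes that rose, 7.84% that fell and a median of -0.06 over all genes. Besides Id3, Atoh8, the gene of a transcription factor induced by BMPs, fell from 6.81 ± 0.651 to 1.64 ± 0.0517 CPM (log2 fold change -2.05, SE 0.23, adjusted p = 0.000325). Smad9, whose product carries and dampens BMP signals, fell by 1.87 (SE 0.50, adjusted p = 0.0287) from 1.3 to 0.35 CPM, and Hey1, a Notch and BMP target, fell by 0.74 (SE 0.22, adjusted p = 0.0417). Bambi, a decoy receptor, rose by 1.39 (SE 0.39, adjusted p = 0.0366) at the low level of 0.212 to 0.588 CPM. Of 20 TGF-beta targets, only Skil rose and only Thbs1 fell with edgeR in H2O2 against vehicle. Their median was -0.25.

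Of 12 genes that hold or release latent TGF-beta outside the cell, 4 fell and 0 rose with H2O2, and their median log2 fold change was -0.36, beside 7.84% of all genes that fell and a median of -0.06. Itgb6 went from 23.7 ± 2.32 to 7.14 ± 0.741 CPM (log2 fold change -1.73, SE 0.22, adjusted p = 0.00062), and the log2 fold changes of Itgb8, Lrrc32 and Thbs1 were -1.42, -1.18 and -0.68. Itgb6 and Itgb8 encode integrin subunits that free TGF-beta, and Lrrc32 encodes a protein that tethers it to the cell surface. Of 7 TGF-beta and activin ligands only Tgfb2 passed with H2O2, and of 5 BMP and GDF ligands Gdf6 fell by 2.69 and Gdf5 rose by 0.87. None of 8 TGF-beta and activin receptors passed in edgeR. Of 8 BMP receptor genes the co-receptors Rgmb and Hfe2 fell, with log2 fold changes of -0.73 and -0.72.

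Of 15 intracellular inhibitors 4 rose and 0 fell with H2O2, and their median was 0.41, beside 7.81% of all genes that rose. Over both H2O2 effects 6 rose and 2 fell (Smad6 by 1.14 and Ldlrad4 by 0.31), beside 14.6% and 16.4% of all genes. Smurf1, a ubiquitin ligase that acts with SMAD7, rose by 0.60, Tob1 by 0.62 and Skil by 0.43, and the last was Bambi. Of 6 genes for SMADs that carry the signal, 2 rose and Smad9 fell. Smad1 rose by 0.54 (SE 0.12, adjusted p = 0.0133) and Smad4 by 0.53 (SE 0.12, adjusted p = 0.0144). Among 11 secreted antagonists, Chrd, which encodes chordin, fell by 0.81. Of the 3 genes for E proteins, partners of ID proteins, Tcf4 fell by 1.03 (SE 0.27, adjusted p = 0.0258), from 104 ± 22.9 to 51.0 ± 6.65 CPM.

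In gRc + H2O2 against gRc, the same lists gave 5 falls of 12 carriers (Itgb6 -1.77, Itgb8 -1.26, Lrrc32 -1.20, Thbs1 -0.95 and Ltbp1 -0.53) and no rise. Of all genes 8.15% fell and 7.57% rose in this comparison. Of 12 BMP targets, 3 fell (Id3, Atoh8 with -1.63 and Hey1 with -1.25), and Smad7 rose. Gdf6 fell by 2.56 and Gdf5 rose by 0.98, and among antagonists Grem1 rose by 1.21 and Chrd fell by 0.91. Smad4 rose by 0.58, Smad1 by 0.45, Tob1 by 0.81 and Smurf1 by 0.71, and the log2 fold changes of Rgmb and Hfe2 were -0.60 and -0.71. No list gene passed in either gRc comparison with edgeR.

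**Figure D4:**
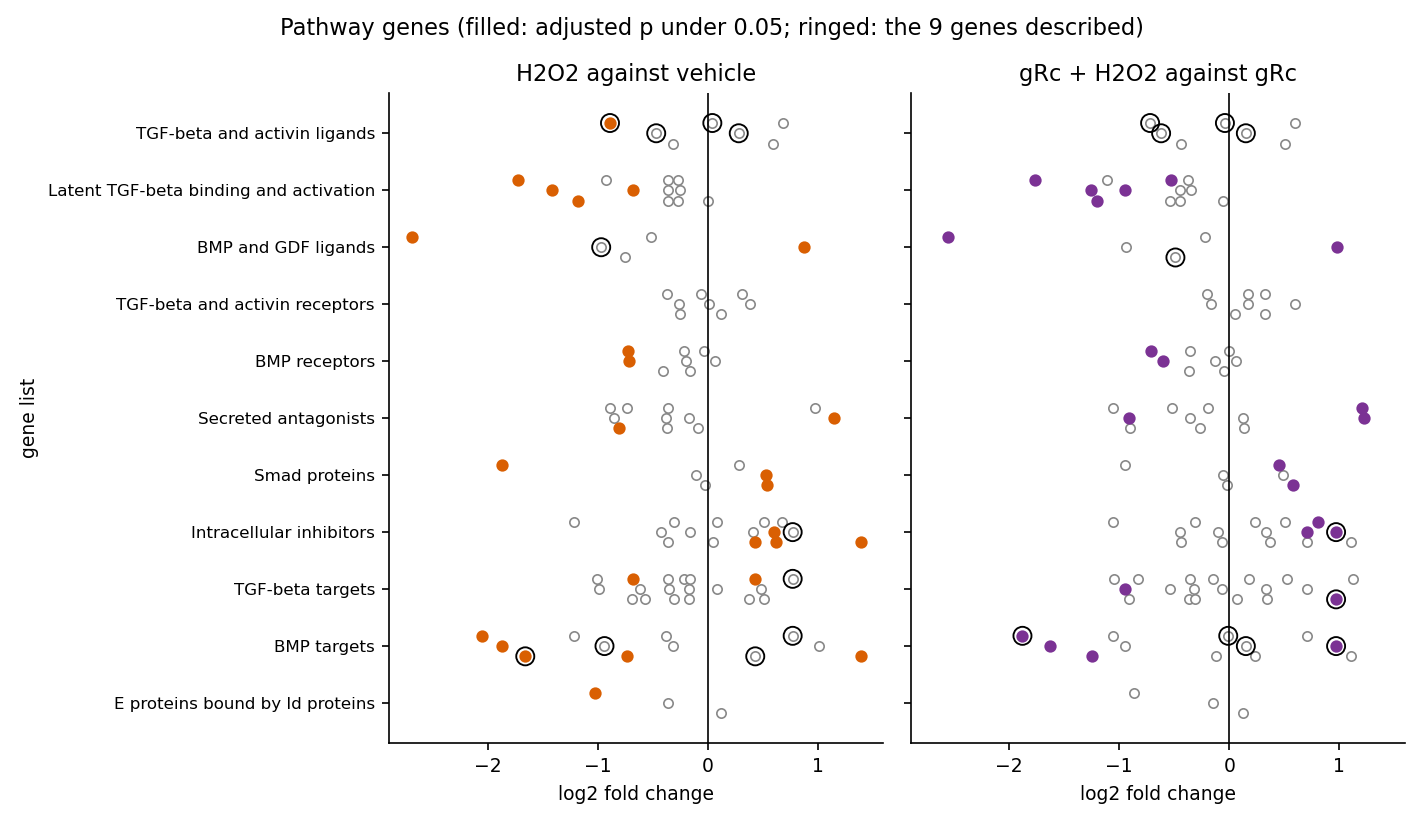
Log2 fold change (horizontal axis) of the tested genes in 11 pathway lists (vertical axis) for H2O2 against vehicle (left) and gRc + H2O2 against gRc (right). Ctgf, a tested gene among the TGF-beta targets, is not shown. Filled points had an adjusted p under 0.05 and rings mark the 9 genes. The 12 carrier genes hold 4 filled points left of 0 on the left and 5 on the right, and no receptor of TGF-beta or activin is filled.

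Some markers of cell state differed with H2O2 as well. The summed level of 10 genes of cycling cells was 308 to 399 CPM in vehicle, 403 to 431 in gRc, 247 to 268 in H2O2 and 248 to 302 in gRc + H2O2, with none at 0. In H2O2 against vehicle 2 of these 10 fell and 0 rose, beside 7.84% of all genes that fell. Of 7 myoblast genes 2 fell: Pax7 (-1.27 on the log2 scale, SE 0.22, adjusted p = 0.00352) and Vcam1. Their summed level ran from 5821 to 14890.4 CPM in vehicle (median 9622) and from 7962 to 11757 CPM in H2O2 (median 10459), so the sums overlapped. The 12 muscle genes summed to between 15363 and 18815 CPM in vehicle and between 13070.4 and 16304 CPM in H2O2. In H2O2 against vehicle 0 of 12 passed. The 8 fibroblast genes summed to between 4081 and 25482 CPM in vehicle and between 4963 and 10134 CPM in H2O2. Of the 7 tested, 0 passed in H2O2 against vehicle. In gRc + H2O2 against gRc, 2 of 10 cycling, 2 of 7 myoblast, 2 of 12 muscle and 0 of 7 fibroblast genes fell, beside 8.15% of all genes. Over both H2O2 effects 5, 3, 3 and 1 of them fell, beside 16.4%. The muscle genes that fell were Ttn and Myh8, and over both also Myh3. The part of any of these in the fall of Id3 and Tgfb2 or the rise of Smad7 was not tested.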

How the data were processed

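Poly(A) RNA of 12 C2C12 libraries (4 groups of 3, as in the labels) was sequenced as paired reads of 100 bases. Per the labels, the authors trimmed reads with Trim Galore, aligned them with STAR 2.7.3a to GRCm38 and quantified genes with RSEM 1.3.3. The authors deposited expected counts per gene, which are not normalized, TPM, scaled within a library, and effective lengths in bases. FPKM were not used. How strand was handled in counting is not given in the sources used here.

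Expected counts were rounded, and edgeR 4.0.16 (R 4.3.3) fitted all 12 libraries with TMM factors, filterByExpr and a quasi-likelihood F test. P-values were adjusted over 14838 genes by the Benjamini-Hochberg method, and an adjusted p under 0.05 passed. An SE was obtained as the absolute log2 difference over the root of its F value. The biological coefficient of variation was 0.295. Scripts were tested on simulated data.

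The 9 genes and the pathway lists were chosen with earlier results of these data known. Named pathway genes were, per list, up to 4 with the smallest p among those passing in H2O2 against vehicle and every gene passing in another comparison, of which 1 is not reported here; the 2 nearest genes of each member needed an average log2 CPM of at least 2. Alternatives were DESeq2 1.42.0, RLE and upper quartile factors, no filter, at least 10 counts in every library, a fit to only the groups compared, a block for the replicate number, a GC correction (spline with 5 degrees of freedom) without and with it, effective-length offsets, limma 3.58.1 on log2(TPM + 0.5) or log2(TPM + 0.1), and libraries left out. Deviations of libraries with the same replicate number (1, 2 and 3) correlated at 0.46, 0.271 and 0.86 between vehicle and gRc. Between H2O2 and gRc + H2O2 they correlated at 0.0802, 0.402 and 0.309. The values were 0.44, 0.294 and -0.283 between vehicle and H2O2. Between gRc and gRc + H2O2 they were 0.0206, -0.496 and -0.55. No library duplicated another: at most 1.97% of genes had equal counts in 2 libraries.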

Additional observations from a re-analysis of the deposited data

How the results depend on the processing

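The fall of Id3 kept its direction and its call under every alternative run in both H2O2 comparisons and over both. No called value changed sign in any alternative. Of 1332 values of the 9 genes under alternatives, 1278 stayed on their side of the threshold, 24 passed newly and 30 no longer passed, and 74 values that passed in neither setting changed sign.

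The number of the 9 genes passing in H2O2 against vehicle was 2. It was 1 with only the groups compared, with limma on either TPM scale and with effective-length offsets, and 4 without the 3 libraries that stood apart, which leaves 1 vehicle library that is assumed to vary like the others. Leaving out 1 library in turn gave 1 to 5, the highest without vehicle replicate 1. In gRc + H2O2 against gRc it was 2, and 1 with RLE or upper quartile factors, no filter or the replicate block, and 4 with only the groups compared or without the 3 libraries. Leaving out 1 library gave 1 to 4. Over both H2O2 effects it was 3, and 3 to 5 with 1 library left out, again highest without vehicle replicate 1. Under the replicate block the adjusted p of Smad7 in gRc + H2O2 against gRc was 0.0754 and that of Tgfb2 in H2O2 against vehicle 0.0254; in the gRc comparisons the block changed no call.

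Counts over all genes moved more. H2O2 against vehicle called 2323 genes, 739 with only the groups compared, 1492 and 1482 with limma on log2(TPM + 0.5) and log2(TPM + 0.1), and 1267 to 1412 without 1 H2O2 library. The comparison of gRc + H2O2 with gRc called 2332 genes, 1550 with effective-length offsets, 1459 and 1473 with limma, 1186 to 1269 without 1 gRc + H2O2 library, 1380 without gRc replicate 1 and 5153 without the 3 libraries. DESeq2 called 2 genes in gRc + H2O2 against H2O2 and 1 in the interaction, where edgeR called 0. With 3 libraries a group, the width of the intervals limits what can be said of Inhba, Bmp4, Id1 and Id2.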
